A study of Mus musculus with 14 samples.

Results

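The clustered protocadherin genes were taken as the protein-coding genes of chromosome 18 whose symbol in GENCODE vM1, the annotation of the mm9 assembly of mouse, begins with Pcdha, Pcdhb or Pcdhg. This rule gave 24 of 22359 protein-coding genes, with 46 of 45961 protein-coding transcription start sites (TSSs). The genes spanned 37089939 to 38001527 of chromosome 18, and 7 of 13463 H3K27ac peaks lay in that span extended by 50 kb on each side. The peaks came from a single pooled list, made by chromatin immunoprecipitation and sequencing (ChIP-Seq) of acetylated lysine 27 of histone H3 in CD1 mouse retina at embryonic day 14 (E14). It combined 2 replicate libraries and 1 isotype control, the background library made with a non-specific antibody. The title of this sample gives no genotype, and its record names the Lhx2 deletion of the study (Lhx2 fl/fl with a Cre transgene) only in a protocol field common to all samples. The labels call the cells retinal progenitor cells (RPCs), whereas the methods describe whole dissected retinas, so RPCs and newly formed neurons shared the chromatin. With 1 pooled list there is no replicate error for any peak, and all comparisons are descriptions.

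Clustered protocadherins are cell-surface adhesion molecules with extracellular cadherin repeats, encoded by 3 neighbouring gene clusters named alpha, beta and gamma. In the alpha and gamma clusters each variable first exon has its own promoter and is spliced to constant exons shared by the cluster, whereas each beta gene is a single large exon with its own promoter. Single neurons are known to choose different sets of these promoters, with binding of CTCF and cohesin to the chosen ones, and homophilic recognition of the resulting proteins lets sister branches of a neuron avoid each other. The C-type first exons at the 3′ ends of the alpha and gamma clusters (Pcdhac1, Pcdhac2, Pcdhgc3, Pcdhgc4 and Pcdhgc5) are known to be used more uniformly across neurons than the others. In the retina the gamma protocadherins are known for the self-avoidance of starburst amacrine cell dendrites and for the survival of several kinds of neuron. H3K27ac marks promoters and enhancers in use.

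The annotation files most alpha first exons under the symbol Pcdha11 and all gamma first exons under Pcdhgc5. First exons were therefore named from their spacing to a C-type anchor in the RefSeq gene table, Pcdhac1 for alpha and Pcdhgc3 for gamma, and 20 of 21 alpha and gamma TSSs matched a name within 300 bp. The 46 TSSs comprised 9 alpha variable, 25 beta, 5 gamma A, 1 gamma B and 6 C-type sites. Of 58 first-exon names in RefSeq, 40 had a TSS in the annotation used (10 of 14 alpha, 21 of 22 beta and 9 of 22 gamma), and the others were not analysed here.

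A single clustered protocadherin promoter carried a peak, that of the C-type first exon Pcdhgc3. A TSS was counted as called when the edge of a peak lay within 1000 bp of it. By this measure 1 of 24 clustered protocadherin genes was called (4.17%), against 49.5% of all protein-coding genes. Counted by TSS, 1 of 46 was called (2.17%), against 49.0% of all protein-coding TSSs and 52.6% of those on chromosome 18. None of the 11 alpha TSSs and none of the 25 beta TSSs was called, and of the 10 gamma TSSs 1 was called. No peak in the list means that the signal stayed under the threshold of the peak caller in the pooled retina. In bulk tissue, few cells with the mark and little of the mark per cell cannot be told apart.

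**Figure D1:**
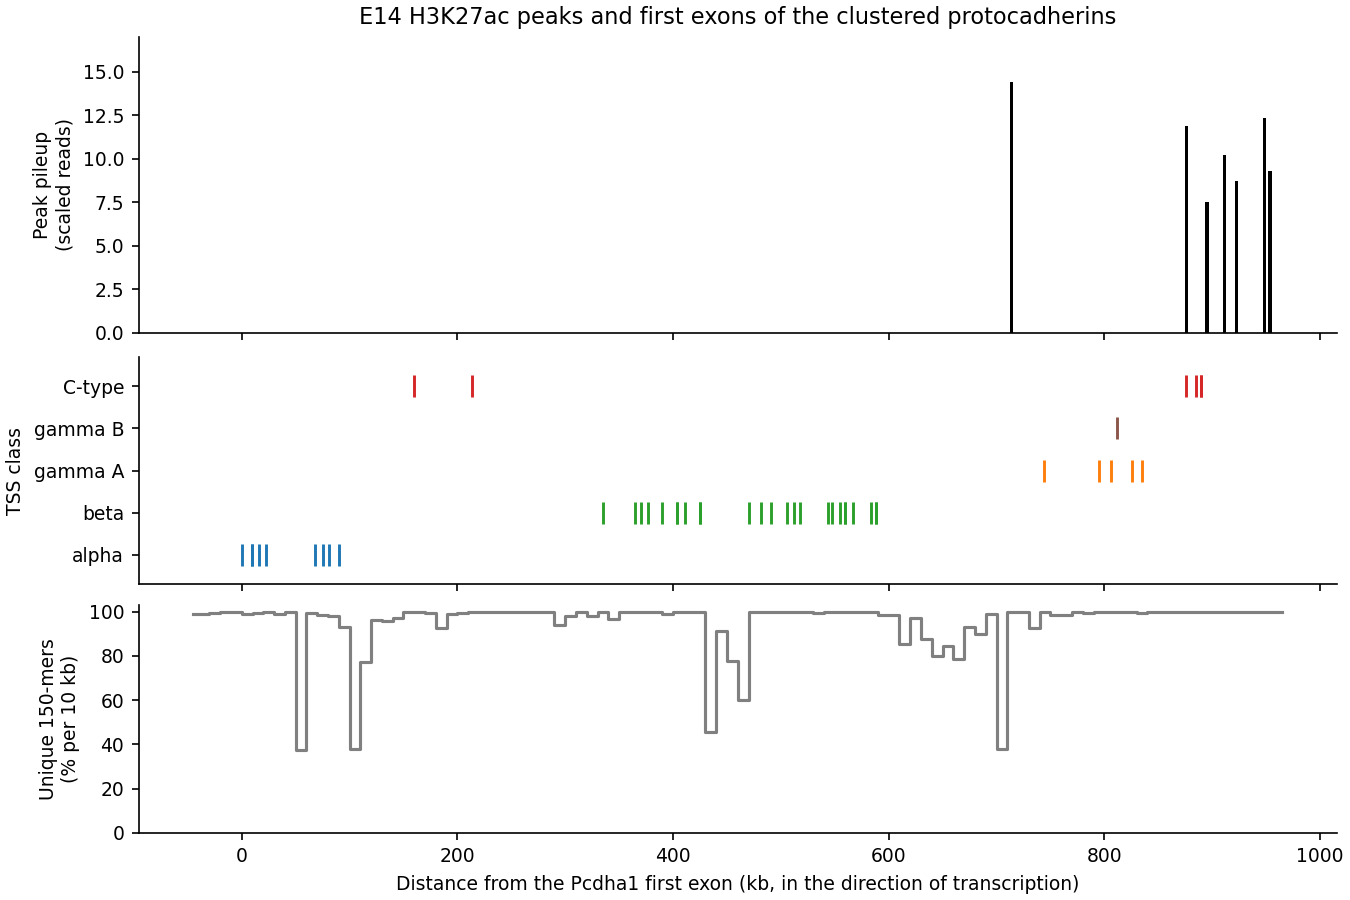
The upper panel plots the mean pileup of each E14 H3K27ac peak in the window (reads after scaling of the libraries; bars narrower than 3 kb are widened to 3 kb), the middle panel the TSSs of each class, and the lower panel the share of 150 bp sequences that occur once in mm9, per 10 kb, all against the distance in kb from the first exon of Pcdha1. The 7 peaks all lie at or beyond the Taf7 promoter, 713 kb from the first exon of Pcdha1, and 1 of them coincides with a TSS tick, that of Pcdhgc3.

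The Pcdhgc3 peak reached from 37965643 to 37966685 of chromosome 18 (1043 bp). It began 421 bp upstream of the TSS at 37966064 and ended 621 bp downstream of it, inside the first exon (37966064 to 37968631), which encodes the extracellular domain. Its mean pileup was 11.88 scaled reads, its fold enrichment over the local background 4.10 and its q value 3.11e-04. Its length was close to the middle of all peaks (longer than 51.7%, median 1015 bp). Its pileup was low, higher than 27.9% of all peaks (median 15.1) and well under the median of 16.4 of the 10171 peaks at protein-coding TSSs. Its fold enrichment was higher than 28.1% of the peaks at TSSs, whose median was 4.73. The peak also met a stricter limit (fold enrichment no less than 4 and q value no more than 0.001).

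The other C-type promoters had no peak, and their distances to the nearest peak divided the gamma from the alpha sites. The TSS of Pcdhgc4 lay 8048 bp downstream of the Pcdhgc3 peak. The pair of Pcdhgc5 TSSs, at 37979200 and 37979308, lay 5609 bp and 5501 bp upstream of the next peak and were the uncalled sites closest to any peak. In the alpha cluster the nearest peak of Pcdhac1 was 288069 bp away, and that of Pcdhac2 was 341902 bp away. No clustered protocadherin TSS had its nearest peak between 1000 and 5000 bp, so the value for Pcdhgc3, which lay inside its peak at a distance of 0 bp, and that for Pcdhgc5 are the ones on either side of the 1000 bp limit.

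The variable gamma first exons lay closer to a peak than the alpha and beta exons, but none was at one. Pcdhga3, the first annotated gamma exon, lay 29638 bp downstream of the Taf7 peak. Pcdhga8 and Pcdhga9 lay 80283 bp and 69053 bp upstream of the Pcdhgc3 peak. Pcdhgb6, the only gamma B exon annotated, lay 63895 bp from the same peak, and Pcdhga11 and Pcdhga12 lay 50216 bp and 40409 bp from it. These 6 sites share a stretch of 161 kb without a peak, from 37804352 to 37965642. Over all 10 gamma TSSs the median distance was 35023 bp.

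The alpha and beta TSSs were all more than 125 kb from a peak. For the 11 alpha TSSs the distance ran from 128218 bp at Pcdha1 to 341902 bp at Pcdhac2, with a median of 195813 bp, and it rose along the cluster because the nearest peak of each was the same region upstream of Pcdha1. For the 25 beta TSSs the distance ran from 125351 bp at Pcdhb22, the last beta gene, to 378712 bp at Pcdhb1, the first, with a median of 222292 bp, and the nearest peak of each was that of Taf7. The values of neighbouring TSSs are thus not independent. Over all 46 TSSs the median distance was 168053 bp, against 1760 bp over all protein-coding TSSs, and 11.8% of all protein-coding TSSs were farther from a peak than the clustered protocadherin median.

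**Figure D2:**
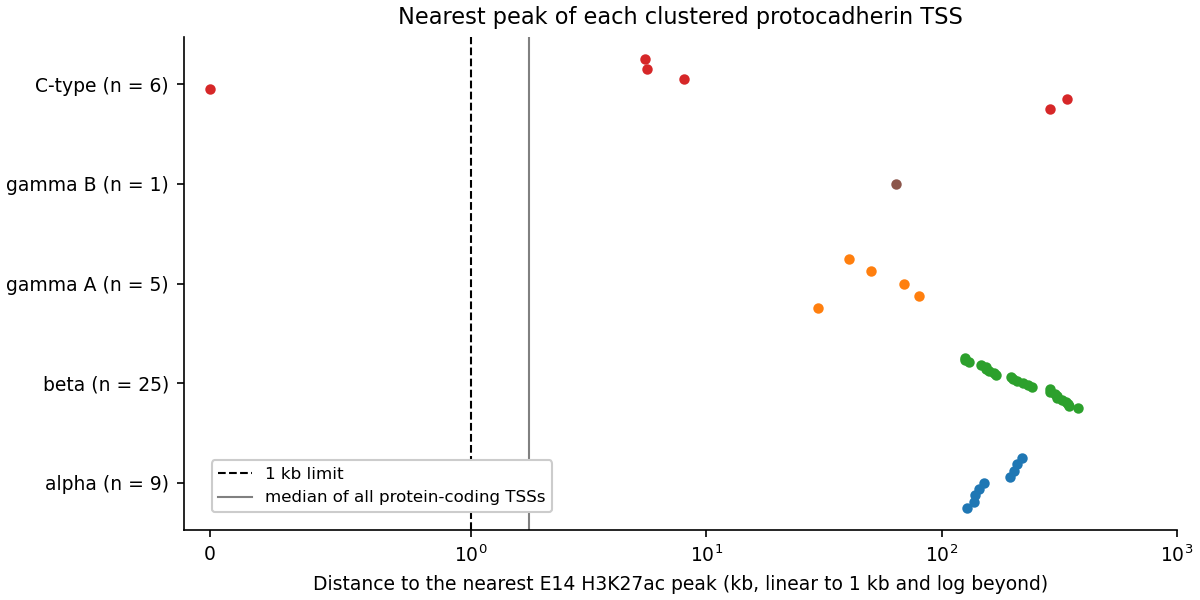
Each point is a clustered protocadherin TSS, placed by its distance to the nearest E14 H3K27ac peak in kb (linear to 1 kb, logarithmic beyond) and grouped by class; within a class, points are spread vertically in genomic order. Pcdhgc3 is the only point left of the 1 kb line (dashed), the gamma variable exons lie between 29638 and 80283 bp, and the alpha and beta sites lie beyond 125 kb, against a median of 1760 bp for all protein-coding TSSs (gray line).

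The alpha and beta clusters shared 1 uninterrupted stretch without a peak, from 36961722 to 37803363 of chromosome 18 (842 kb). It held 36 of the 46 TSSs and 23 of the 24 genes, that is every alpha and beta gene of the annotation. Its length ranked 642 of 13442 stretches between neighbouring peaks of the genome (the longest 4.78%), where the median stretch was 59151 bp. By the number of protein-coding genes with a TSS in it, 27, it stood higher, since only 30 of 2683 peak-free stretches of at least 200 kb held more. The 4 other genes in it were Gm6756, Gm10545, the mitochondrial carrier gene Slc25a2, and Taf7, a subunit of the general transcription factor TFIID, through a TSS 198 bp from its own peak. With the stricter limit on peaks the stretch was 849224 bp long.

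Reads from the near-identical exons of gene families can fail to map to 1 place, so the uniqueness of the sequence was measured. Around the 46 TSSs (1000 bp on each side), a median of 100% of the 150 bp sequences, the tag length of this experiment, occurred once in mm9, and the lowest share was 93.6%, at Pcdha10. With 50 bp sequences the median was 97.7% and the lowest share 87.2%, at Pcdhb9. Over the window from its start to the Taf7 peak, 93.6% of 150 bp sequences were unique. The 4 bins of 10 kb with under 50% hold no clustered protocadherin TSS of the annotation used, and first exons missing from it were not checked. All 46 TSSs had at least 90% unique 150 bp sequences, and Pcdhgc3 was at 100% for both lengths. Its part in the absence of peaks was not tested.

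Of the 7 peaks of the window, 4 lay inside the span of the clusters, and 3 of these were away from every clustered protocadherin TSS. The first was the promoter peak of Taf7, which lies between the beta and gamma clusters on the opposite strand. It reached from 37803364 to 37804351 (988 bp), with a pileup of 14.41, a fold enrichment of 5.42 and a q value of 4.68e-07. It was thereby the peak with the highest pileup and fold enrichment of the 7. Taf7 was the only other gene with a called protein-coding TSS inside the window, whereas Slc25a2 lay 4987 bp and 3222401L13Rik 11210 bp from it.

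The other peaks away from a TSS lay in the 3′ end of the gamma cluster, where the constant exons are. One reached from 37984809 to 37985649 (841 bp) in the intron after the first constant exon (37984675 to 37984733), which it followed by 76 bp. It was the weakest peak of the window, with a pileup of 7.52 (higher than 3.59% of all peaks), a fold enrichment of 3.51 and a q value of 2.23e-02. The other reached from 38001040 to 38002314 (1275 bp), over the end of the last constant exon (37999557 to 38001527), and ran 787 bp past the annotated end of the cluster. Its pileup was 10.2, its fold enrichment 3.54 and its q value 6.42e-03. The nearest TSS of a protein-coding transcript was 21732 bp from it. Neither met the stricter limit.

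Downstream of the gamma cluster, the window held 3 peaks in introns of Diap1, a formin gene transcribed towards the clusters. The part of the genome downstream of the gamma constant exons is known to hold distal enhancers of clustered protocadherins, but which gene these peaks act on was not measured. The peak at 38012095 to 38012644 (550 bp) had a pileup of 8.72 and a fold enrichment of 3.58, and lay 417 bp from the 5′ end of a non-coding Diap1 transcript. The peak at 38036692 to 38039862 was the longest of the window with 3171 bp, longer than 97.8% of all peaks, at a pileup of 12.31 and a fold enrichment of 4.58. The peak at 38043477 to 38043850 was the shortest with 374 bp, and had a pileup of 9.31 and a fold enrichment of 4.93. The last 2 met the stricter limit, and they lay 10919 bp and 6931 bp from the only protein-coding TSS of Diap1 within the window (38050781), which was not called. Of the 6 distinct protein-coding TSSs of Diap1, 4 lay beyond the window inside or within 27 bp of a further peak, at 38094470 to 38095103.

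The peaks were unevenly placed in the window. It held 6.92 peaks per Mb, against 4.42 over chromosome 18 and 5.26 over the genome, and its peaks covered 0.815% of it (8242 bp), against 0.615% of the genome. Without the flanks of 50 kb the span of the clusters held 4.39 peaks per Mb, and 0.369% of it was covered. All 7 lay downstream of the beta cluster. Their pileups, from 7.52 to 14.41, were all under the median of all peaks, 15.1, while 3 fold enrichments (Taf7 and the last 2 in Diap1) were above the median of 4.46.

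**Figure D3:**
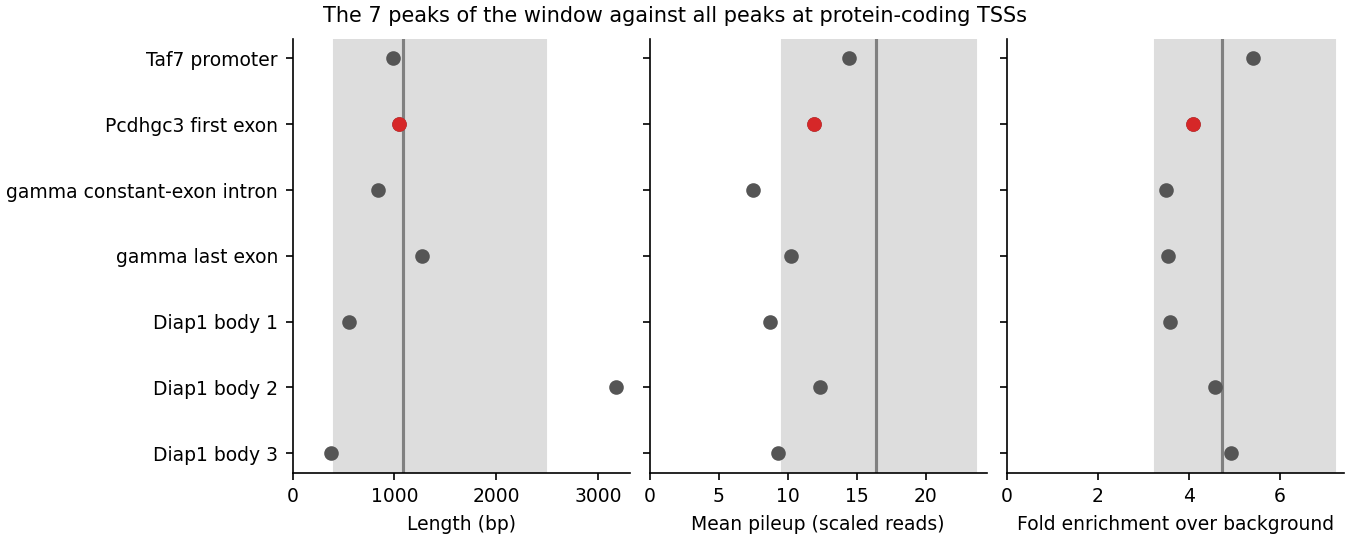
Length in bp, mean pileup in scaled reads and fold enrichment over the local background of the 7 peaks of the window, in genomic order, with the Pcdhgc3 peak in red; the line and the gray band mark the median and the 5th to 95th percentiles of the 10171 peaks at protein-coding TSSs. All 7 pileups lie under the median line (16.4), and the longest peak, in Diap1 (3171 bp), lies beyond the band of lengths, which ends at 2484 bp.

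Promoters in CpG-rich sequence are known to carry H3K27ac more often than others, so the CpG content of the TSSs was read from mm9 over 500 bp on each side. The measure was the number of CpG dinucleotides over the number expected from the C and G content. Over the genome, TSSs with a peak had a median ratio of 0.76 and those without a peak 0.25. The Pcdhgc3 TSS had a ratio of 0.80, with 68 CpGs and a GC content of 58.4%, and ranked 2 of 46 in both the ratio and the GC content. The other clustered protocadherin TSSs ranged from 0.16 to 0.89 (median 0.43), with a median GC content of 44.2%.

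The classes differed in CpG content. All 9 alpha variable TSSs had a ratio of at least 0.6 (0.62 to 0.73), but with a median GC content of 47.0%. None of the 25 beta TSSs reached 0.6 (0.16 to 0.55, median 0.40), at a median GC content of 41.9%. Of the 5 gamma A TSSs 3 reached it, with the highest ratio of all 46 at Pcdhga11 (0.89, GC content 46.4%), and the gamma B TSS of Pcdhgb6 had 0.66. Of the C-type TSSs, Pcdhac1 had 0.61, Pcdhac2 0.79 and Pcdhgc4 0.67, whereas the TSSs of Pcdhgc5 had 0.25 and 0.27.

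The calls were then set beside those of TSSs of like CpG content. Of the 17 clustered protocadherin TSSs with a ratio of at least 0.6, 1 was called, where 87.5% of the 20710 such TSSs of the genome were. Of the 29 with a lower ratio none was called, where 17.4% of 25251 were. With a GC content of at least 50% as well, 4 sites remained (Pcdhac1, Pcdhac2, Pcdhgc3 and Pcdhgc4), of which 1 was called, against 88.1% of 20100. The 13 sites with a ratio of at least 0.6 but a GC content under 50% had no call, against 69.0% of the 610 such TSSs of the genome. Pcdhac2, with a GC content of 67.3% and 89 CpGs, was the most CpG-rich of these promoters by count, and its nearest peak was 341902 bp away.

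**Figure D4:**
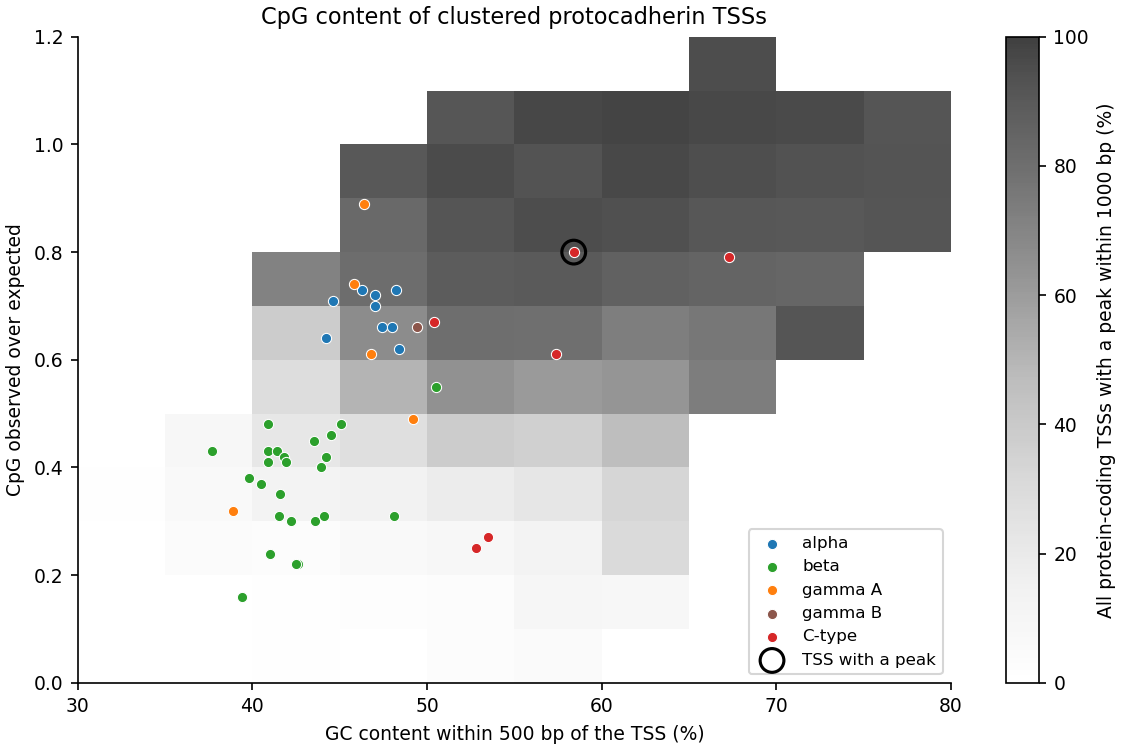
CpG observed over expected against GC content (%) within 500 bp of each clustered protocadherin TSS, coloured by class; the gray squares give the share of all protein-coding TSSs with a peak within 1000 bp in each range, for ranges with at least 20 TSSs. Pcdhgc3 (circled, 58.4% GC and a ratio of 0.80) lies in a dark range, and so do Pcdhac2 (67.3%, 0.79) and Pcdhga11 (46.4%, 0.89), which have no peak.

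Many clustered protocadherin promoters are known to share a conserved element with the core CGCT. These letters were counted on both strands (CGCT or AGCG) from 250 bp before to 50 bp after each TSS. At least 1 match was found at 44 of 46 TSSs, against 69.9% of all protein-coding TSSs. Pcdhgc3 had 9 matches, and the other 45 TSSs had 0 to 7 (median 2, as over all protein-coding TSSs). As many matches as at Pcdhgc3 were found at 1.15% of all protein-coding TSSs. The letters can also occur by base composition alone in CpG-rich sequence, and no count expected from composition was computed. A match is a description of the window, not a bound site.

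Protocadherin genes outside the clusters, which have conventional promoters, were called in a share close to that of all genes when all listed peaks were used. Of 12 such genes, 6 had a peak at a TSS (against 49.5% of all protein-coding genes), namely Pcdh1, Pcdh7, Pcdh10, Pcdh17, Pcdh18 and Pcdh19. Those without were Pcdh8, Pcdh9, Pcdh11x, Pcdh12, Pcdh15 and Pcdh20. The longest peak was that of Pcdh7, with 5344 bp, a pileup of 10.74 and a fold enrichment of 4.20. It was followed by Pcdh19 with 2927 bp and a pileup of 8.21, and by Pcdh10 with 1966 bp and a pileup of 9.07. Their pileups were thus under that of Pcdhgc3 (11.88), although their peaks were longer. Pcdh9 and Pcdh11x lay just outside the limit, with a peak 1661 bp and 2614 bp away. Pcdh1, the nearest of these genes to the gamma cluster on chromosome 18, had a peak of 627 bp with a pileup of 12.89.

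Of 19 classical and related cadherin genes, most of which encode adhesion molecules linked to catenins, 7 were called (36.8%, against 49.5% of all protein-coding genes). These were Cdh2, Cdh4, Cdh7, Cdh11, Cdh20, Cdh22 and Cdh24. N-cadherin, encoded by Cdh2, had a peak of 3073 bp with a pileup of 21.41, Cdh11 one of 4392 bp with a pileup of 16.77, and Cdh4 one of 1587 bp with a pileup of 16.52. Those without a peak were Cdh1, Cdh3, Cdh5, Cdh6, Cdh8, Cdh9, Cdh10, Cdh12, Cdh13, Cdh15, Cdh18 and Cdh19. With the stricter limit, 3 of the 12 protocadherins and 3 of the 19 cadherins were called, against 37.6% of all protein-coding genes, so both shares then lay under that of all genes.

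Genes for CTCF, cohesin and silencing factors were called in larger shares than the 49.5% of all protein-coding genes. Some of their products are known to act on the clusters. Of all TSSs with a CpG ratio of at least 0.6, 87.5% were called, and the ratios of these genes were not set beside their calls. All 12 genes for CTCF and for cohesin and its regulators, which join promoters to distal enhancers, had a peak (Ctcf, Rad21, Smc1a, Smc3, Stag1, Stag2, Nipbl, Mau2, Wapal, Pds5a, Pds5b and Esco1). The longest of these were at Nipbl, the cohesin loader, with 3785 bp and a pileup of 21.41, at Stag2 with 2623 bp and at Stag1 with 2459 bp. All 7 genes for DNA methylation and silencing factors were also called (Dnmt1, Dnmt3a, Dnmt3b, Smchd1, Setdb1, Trim28 and Ehmt2). Among them Trim28, a co-repressor, had 2756 bp and a pileup of 19.13, Dnmt3a, a de novo DNA methyltransferase, 2102 bp and 18.8, and Ehmt2, a histone H3 lysine 9 methyltransferase, 1886 bp and 17.22.

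Of 10 genes for partners of clustered protocadherins in the cell, 9 were called, against 49.5% of all protein-coding genes (Ptk2, Fyn, Ret, Wasf1, Pdcd10, Axin1, Adam10, Rac1 and Rhoa). The longest peaks were those of Wasf1, which encodes the WAVE1 regulator of actin branching, with 2069 bp and a pileup of 21.54, the small GTPase Rac1 with 1782 bp and 19.23, and Pdcd10 with 1744 bp and 16.03. The kinase gene Ptk2b was not called, and its nearest peak was 15465 bp away.

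The tissue label was checked in the same way, against the 49.5% of all protein-coding genes. Retinal progenitor markers were called in 9 of 9 cases (Pax6, Rax, Six3, Six6, Lhx2, Sox2, Hes1, Ccnd1 and Sfrp2) and ganglion cell markers in 4 of 5 (Pou4f2, Atoh7, Isl1 and Elavl4, not Sncg). Photoreceptor precursor, pigment epithelium and endothelium markers were each called in 1 of 5 (Otx2, Pmel and Kdr), and lens, microglia and liver markers in 0 of 5 each. Promoters of both progenitor and ganglion cell genes were thus in the peak list, whereas those of the alpha and beta clusters were not.

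**Figure D5:**
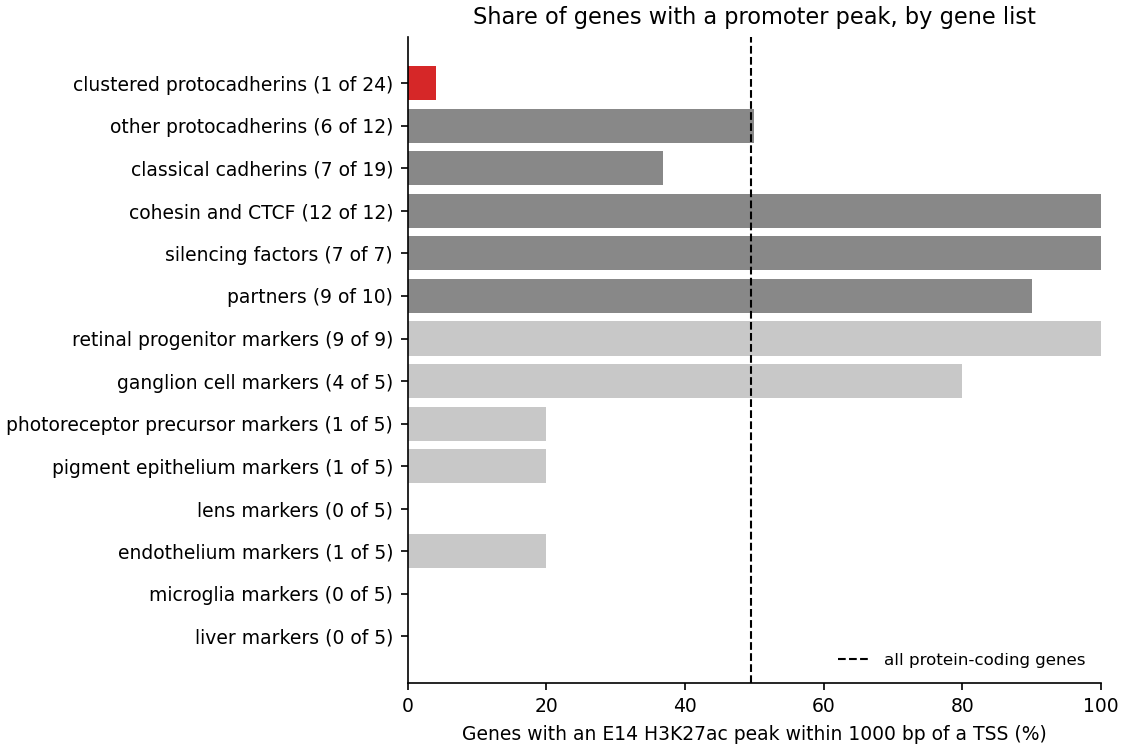
Share (%) of the genes of each list with an E14 H3K27ac peak within 1000 bp of a TSS, with the counts beside the names; the dashed line is the share of all protein-coding genes (49.5%). The clustered protocadherins (red, 4.17%) lie far left of the line, the other protocadherins (6 of 12) next to it, and CTCF, cohesin and silencing genes at 100%; light bars are tissue markers.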

How the data were processed

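H3K27ac ChIP-Seq of E14 retina was measured in 2 libraries against 1 isotype control. The authors aligned reads to mm9 with Bowtie2 and ran MACS 2.1.0.20140616 in its broad mode on the pooled replicates. The deposited file header gives a q cutoff of 0.05, a broad cutoff of 0.1, at most 1 tag per position, 150 bp tags and a fragment size of 313 bp. It also gives 113543038 of 159237447 ChIP tags and 9210563 of 27735759 control tags kept after filtering. Depth thus limits the control more than the ChIP, and 1 pooled list allows no test between samples. The deposited pileup is a mean signal after scaling the ChIP library down to the control. The deposited fold enrichment is a ratio over the local background that MACS derives from the isotype control, and the deposited p and q values are -log10 values averaged over each region. Length in bp is taken as the authors deposited it.

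Distances ran from each GENCODE vM1 protein-coding TSS to the nearest peak edge. The tables were computed with Python 3.11.15, numpy 2.4.6 and pandas 2.3.3, figures with matplotlib 3.10.9, and the counting was tested on simulated data. First exons were named by spacing against the RefSeq GRCm38 gene table, of which no coordinate is printed. Named genes were every clustered protocadherin with a peak at or within 5000 bp of a TSS, the C-type genes, each window gene with a peak, and all comparison list genes by state with values for up to 3 of the longest peaks. The values of Pcdh1 and single distances of other first exons were added after they were seen. Members and lists were chosen with earlier results of these data known. Other distances, peak limits, TSS choices and window sizes were tried. A share of repeats was planned and not computed, since the genome sequence used is not masked, and the CpG comparison at a ratio of 0.6 and a GC content of 50%, the peak-free stretches and the uniqueness profile were added after the data were seen. No base sequence of the clusters is printed, and a few list genes are not reported here and stay out of the counts.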

Additional observations from a re-analysis of the deposited data

How the results depend on the processing

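The Pcdhgc3 promoter remained the only call among the clustered protocadherins under 7 other settings (limits of 500 and 2000 bp, the TSS inside the peak, the stricter limit, q of at most 0.01, all transcript types, distance to the midpoint), where 37.6 to 50.1% of all protein-coding genes were called. With only the most upstream TSS of each gene, 0 clustered protocadherin genes were called (47.6% of all genes), since Pcdhgc3 is not the first exon of its gene. The window held 4 peaks when it was not extended, 4 with the stricter limit and 5 at q of at most 0.01, and 8 when extended by 100 kb. Peaks inside the clusters away from a TSS numbered 1, that of Taf7, with the stricter limit. The same settings were applied to the gene lists after the data were seen: by distance to the midpoint 6 of the 9 retinal progenitor markers were called. Ganglion cell markers were called in 3 of 5 cases with the stricter limit and also at q of at most 0.01. Of the single marker calls, pigment epithelium (Pmel) fell to 0 at 500 bp, inside the peak, with the stricter limit and by midpoint, endothelium (Kdr) fell to 0 with the stricter limit, and liver rose to 1 at 2000 bp. No paired analysis was possible because the peak list pools the replicates. The control kept 9210563 tags, which limits the precision of each enrichment.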

Other observations

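The 30 peak-free stretches of at least 200 kb with more protein-coding genes than the alpha and beta clusters were led by olfactory receptors in 14 cases, by vomeronasal receptors in 4, by other listed families such as keratins, defensins and taste receptors in 6, and by none of the listed families in 6. Olfactory and vomeronasal receptors, like the clustered protocadherins, are known for the choice of few members per cell. Whether this bears on the absence of peaks was not tested. None of the 1113 olfactory receptor genes and none of the 328 vomeronasal receptor genes had a peak within 1000 bp of a TSS, against 49.5% of all protein-coding genes. The Ugt1a genes, a further tandem series of variable first exons spliced to shared exons that is known from liver and gut, had 0 of 16 TSSs called, against 49.0% of all protein-coding TSSs. These 3 families were chosen after their values were seen.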
